A study of Mus musculus with 50 samples.

Results

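The genes described here carry symbols of the translation initiation factors (eIFs) and elongation factors (eEFs) of the cytosol. Most of them, but not all, encode such factors. All were chosen by name alone, as rows whose symbol begins with Eif and a digit, or with Eef1 or Eef2. The X- and Y-linked copies of the third eIF2 subunit, Eif2s3x and Eif2s3y, were left out. The rule found 61 of the 11879 gene rows. Of these, 57 carried a current symbol and 4 (Eif2c1 to Eif2c4) were older symbols of the Argonaute genes Ago1 to Ago4, which act in silencing by small RNAs and are not initiation factors. The rule also took in kinases of eIF2 and eEF2, eIF4E-binding proteins, the synthetase scaffold gene Eef1e1 and the exon junction gene Eif4a3. All of these were kept, so counts of factors below include them. Eif2c2 is the Argonaute among the 51 genes seen in at least 25 cells. All 61 were protein-coding genes in the GENCODE M21 annotation of GRCm38, spread over 19 chromosomes.

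Protein synthesis begins when the small ribosomal subunit, carrying the initiator tRNA on eIF2 and held open by eIF1, eIF1A and eIF3, is brought to the capped end of an mRNA by the eIF4F complex. Once the start codon is found, eIF5 triggers GTP hydrolysis on eIF2 and eIF5B joins the subunits, after which eEF1A delivers each aminoacyl-tRNA and eEF2 moves the ribosome along. The pathway is known to be controlled by phosphorylation of eIF2, by the eIF4E-binding proteins downstream of mTORC1, and by MYC family transcription factors, which bind the E-box CACGTG.

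The data were 50 single mouse hemogenic endothelial cells (iHECs, the endothelial cells from which blood arises), made in culture from C57BL/6 embryonic stem cells that carried a doxycycline-inducible Runx1 cassette in Rosa26 (iRunx1-ESC). According to the study's methods, doxycycline was added to the culture before the sort, which was CD31+CD41lowCD45-c-kit+CD201high. Every cell had the same genotype and treatment. There was 1 group with no replicate culture, so the cells are 1 sample, no test between conditions was possible and no p-value is given. Spread below is spread between cells. Values are TPM, the authors' length-scaled transcript abundances, which can be compared between genes. They do not record how many reads a cell had, and its depth is unknown.

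Most, but not all, of the markers of the label were present. Of 8 endothelial markers, 6 were above TPM 1 in all 50 cells. Among the hemogenic markers, Procr (CD201) was above it in 50 cells, Kit in 47, Runx1 in 43, Gata2 in 41, Itga2b (CD41) in 40 and Gfi1 in 17, where its median was 0. Ptprc (CD45) was listed at 0 in all 50 cells. The cells were sorted on the proteins of Procr, Kit, Itga2b, Ptprc and Pecam1, so these genes are no separate check of the label. Runx1 is also the gene of the induced cassette, and its TPM may include the cassette. Of 6 mature blood markers, 4 were above TPM 1 in no cell, and the other two were Lyz2 in 15 cells and Mpo in 4. The summed level of the 3 megakaryocyte, 4 erythroid and 4 mesenchymal markers had a median of 0 TPM, with highest values of 180.7, 821 and 9.15 TPM, and the platelet factor gene Pf4 was above TPM 1 in 17 cells. The number of genes above TPM 1 ran from 2400 in cell 4-6 to 8615 in cell 3-8, with a median of 6223.5. Cells are named here by the 2 numbers of their titles, whose meaning is not given in the sources used here. The first number takes 4 values, with 11, 14, 13 and 12 cells.

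Most of the translation factors were expressed in at least 25 of the 50 iHECs. Of the 61 genes, 29 (47.5%) were above TPM 1 in all 50 cells, where 7.15% of all rows were, and 51 (83.6%) were above it in at least 25 cells, where 53.2% of all rows were. A single cell had a median of 51 of the 61 genes above TPM 1, from 36 in cell 4-6 to 58 in cell 3-8. These are the cells with the lowest and the highest number of genes detected. Together the genes carried a median of 21591 TPM, or 2.25% of the TPM listed for a cell. The lowest sum was 12438 TPM in cell 4-1, the next lowest 16352 TPM in cell 2-15 and the highest 29184 TPM in cell 1-11. The coefficient of variation over cells was 14.2%, and by first title number the 4 median shares ran from 2.2% to 2.3%. For scale, the 83 cytosolic ribosomal protein rows carried a median of 13.95% of the TPM.

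**Figure D1:**
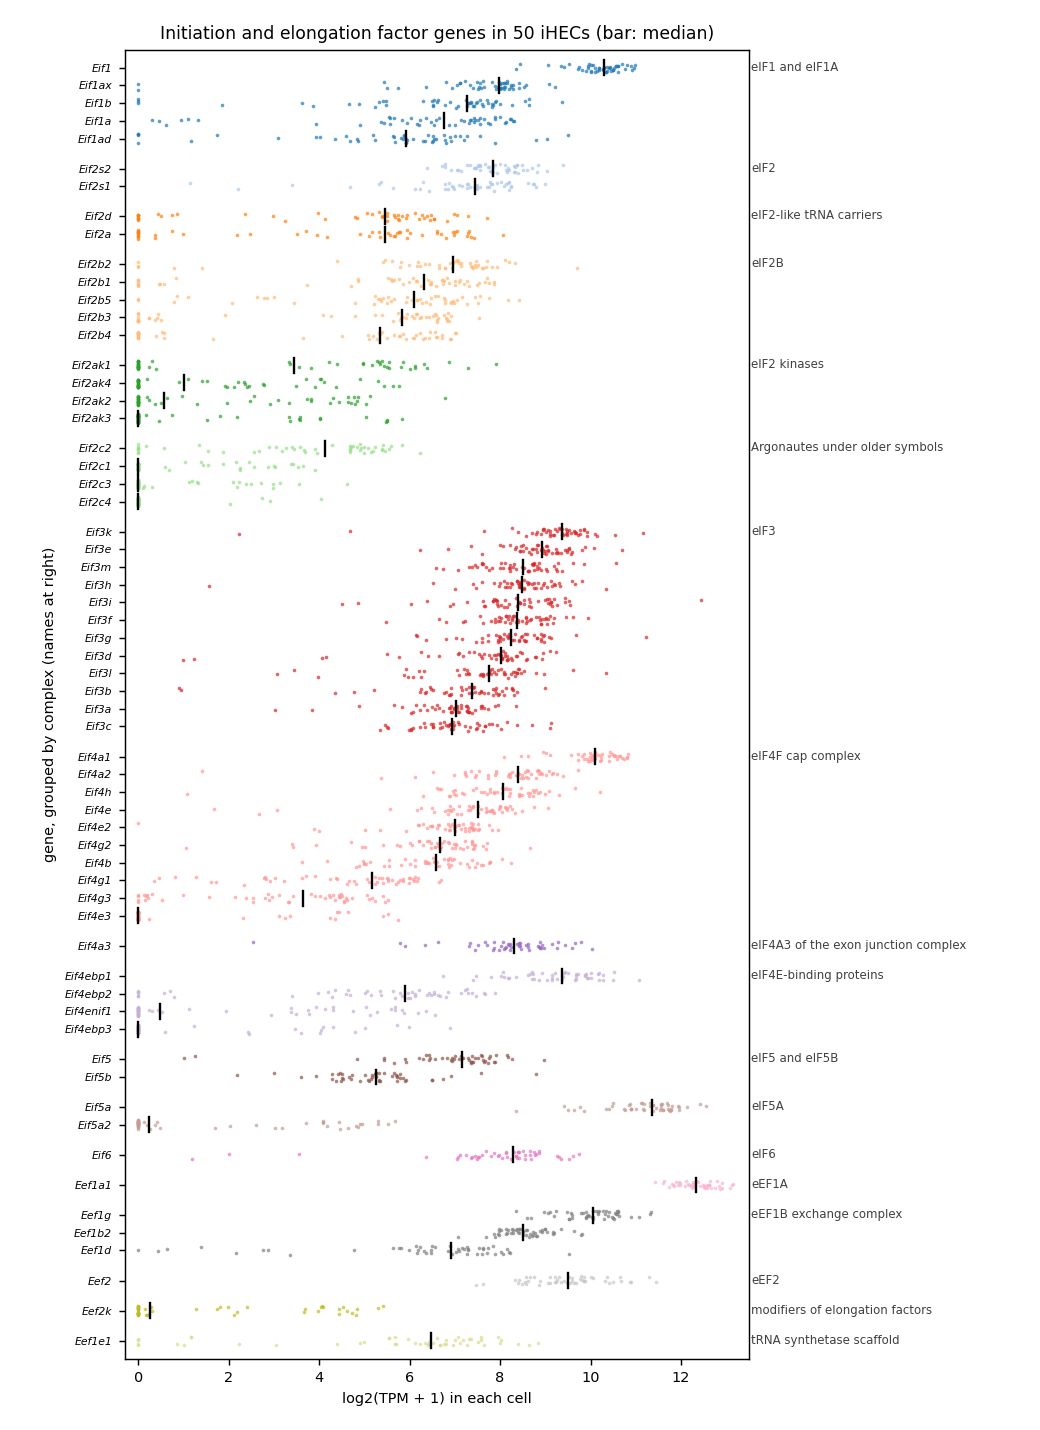
Each dot is 1 of the 50 cells, each line of dots 1 of the 61 genes, and the horizontal axis is log2(TPM + 1); black bars are medians and genes are grouped by complex. Eef1a1 stands highest with a median of 5151 TPM, while the 4 eIF2 kinases, 3 of the Argonautes, Eif4e3, Eif4ebp3, Eif4enif1, Eif5a2 and Eef2k have most or many cells at or near 0.

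The elongation factors were few and abundant. The 7 genes of eEF1A, the eEF1B exchange complex, eEF2 and eIF5A summed to a median of 10221 TPM, or 47.2% of all 61 genes. The 36 genes of eIF1, eIF2, eIF2B, eIF3, eIF4F, eIF5 and eIF5B summed to 9568 TPM, or 44% of the 61 genes. Eef1a1 (chr9:78478449-78489151, minus strand), which encodes the GTPase that brings aminoacyl-tRNA to the ribosome, had a lowest value of 2743 TPM, a median of 5151 TPM and a highest value of 9147 TPM. Its median ranked 7 among all rows, and its SD of log2(TPM + 1) of 0.41 was the smallest of the 51 genes seen in at least 25 cells. It made up a median of 25.2% of the summed level of the 61 genes, from 14.6% in cell 1-8 to 33.9% in cell 2-11.

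The guanine nucleotide exchange complex eEF1B recharges eEF1A with GTP. Its gamma subunit Eef1g had a median of 1066 TPM (range 327 to 2592), Eef1b2 had 363 TPM (133 to 892) and Eef1d had 119 TPM (0 to 733). The order Eef1g over Eef1b2 held in 46 of 50 cells, and Eef1b2 over Eef1d in 47. Eef1d also varied most, with an SD of log2(TPM + 1) of 2.19 against 0.54 for Eef1b2 and 0.66 for Eef1g.

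Eef2, which encodes the translocation GTPase, had a lowest value of 175 TPM, a median of 726 TPM and a highest value of 2783 TPM. It was below Eef1a1 in all 50 cells, with a median log2 ratio of Eef1a1 to Eef2 of 2.84. Eef2k, the kinase that inhibits eEF2, had a median of 0.19 TPM and was above TPM 1 in 22 cells (44%, exact 95% interval 29.99% to 58.7%). Eef1e1, despite its symbol a scaffold of the multi-tRNA synthetase complex, had a median of 87.9 TPM and was above TPM 1 in 45 cells.

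Eif5a (chr11:69916714-69921958, minus strand) encodes the hypusine-bearing factor that helps ribosomes past difficult peptide bonds. It was the second most abundant of the 61 genes, with a lowest value of 327 TPM in cell 4-1, a median of 2620 TPM and a highest value of 6011 TPM in cell 2-12. Its paralog Eif5a2 had a median of 0.17 TPM and was above TPM 1 in 21 cells, and Eif5a was higher in all 50 cells. Eif5a exceeded Eef1a1 in only 2 of 50 cells. The enzymes that make hypusine were lower, with medians of 29.5 TPM for Dhps and 99.1 TPM for Dohh, in 36 and 44 cells.

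Within the cap-binding eIF4F group the RNA helicase subunit outnumbered the cap-binding and scaffold subunits. Eif4a1 (chr11:69666936-69672423, minus strand), the main eIF4A helicase, had a lowest value of 269 TPM, a median of 1088 TPM and a highest value of 1806 TPM. The cap-binding protein gene Eif4e had 181 TPM (range 2.2 to 530), and the scaffold Eif4g1 had 34.9 TPM (0.26 to 102). Eif4a1 was above Eif4e and above Eif4g1 in all 50 cells, with median log2 ratios of 2.59 and 4.99. TPM counts mRNA and not protein, so these ratios are not those of the assembled complex.

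Paralogs in the group differed in level. Eif4a2 had a median of 334 TPM and was below Eif4a1 in 48 of 50 cells. Eif4g2, which encodes a scaffold without the eIF4E-binding site, had a median of 101 TPM and was above Eif4g1 in 46 cells. Eif4g1 was above Eif4g3 (11.4 TPM) in 42 cells. Eif4e2, an eIF4E relative that represses bound mRNAs, had 127 TPM and was below Eif4e in 34 of 50 cells (68%, exact 95% interval 53.3% to 80.5%), so those neighbours overlapped broadly. Eif4e3 was listed at 0 in 37 cells and above TPM 1 in 12. The helicase cofactors Eif4h and Eif4b had medians of 268 and 94.7 TPM. Eif4a3, which sits in the exon junction complex and not in eIF4F, had 316 TPM.

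Among the eIF4E-binding proteins, which keep eIF4E from eIF4G, Eif4ebp1 was high in every cell. It had a lowest value of 106 TPM, a median of 662 TPM and a highest value of 2147 TPM. It was above Eif4e in 46 of 50 cells and above Eif4ebp2 (58.5 TPM) in 48. Eif4ebp3 was listed at 0 in 35 cells and was above TPM 1 in 14. Eif4enif1, the eIF4E transporter, was above TPM 1 in 24 cells.

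The 12 genes of eIF3 analysed here, which encode the large scaffold on the small ribosomal subunit, were abundant. The loosely bound subunit Eif3j was not analysed here. They summed to a median of 4115 TPM, or 19% of the 61 genes, and 10 of the 12 were above TPM 1 in all 50 cells. The exceptions were Eif3b in 48 cells and Eif3d in 49. Although the subunits enter 1 complex, their medians spanned 5.42-fold, from 122 TPM for Eif3c and 129 TPM for Eif3a to 488 TPM for Eif3e and 660 TPM for Eif3k. Eif3k was above Eif3a in 48 of 50 cells. The remaining subunits lay close together, with medians between 301 TPM for Eif3g and 362 TPM for Eif3m for 5 of them, and 166, 216 and 257 TPM for Eif3b, Eif3l and Eif3d. A single cell could hold an extreme value: Eif3i reached 5538 TPM in cell 4-6, where the next highest cell had 742 TPM. Cell 4-6 also had the lowest value of Eif3d, Eif3g, Eif3h and Eif3k, and it is the cell with the fewest genes.

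The subunits of eIF2, the GTPase that carries initiator tRNA, had medians of 228 TPM for Eif2s2 (83 to 675) and 173 TPM for Eif2s1 (1.22 to 511). Both were above TPM 1 in all 50 cells, and Eif2s2 was the higher in 34. The 5 genes of its exchange factor eIF2B were lower, from 39.4 TPM for Eif2b4 to 123 TPM for Eif2b2. None of the eIF2B genes was above TPM 1 in all cells, and the counts ran from 33 cells for Eif2b4 to 46 for Eif2b2 and Eif2b5. Eif2b1 was above TPM 1 in 40 cells with a median of 79.3 TPM, and Eif2b3 in 35 cells with 56.3 TPM. Eif2a and Eif2d, which can load initiator tRNA without eIF2, had medians of 42.6 and 43.1 TPM.

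The 4 kinases that phosphorylate eIF2 under stress were low. Eif2ak1 (HRI, the heme-regulated kinase) was above TPM 1 in 27 cells, with a median of 9.95 TPM and a highest value of 239 TPM in cell 2-7. Eif2ak4 (GCN2, which senses uncharged tRNA) was above TPM 1 in 25 cells, Eif2ak2 (PKR) in 23 and Eif2ak3 (PERK) in 15. In 9 cells no kinase was above TPM 1, in 36 cells between 1 and 3 were, and in 5 cells all 4 were. Of 11 genes of the response downstream of eIF2 phosphorylation, 10 were above TPM 1 in at least 25 cells, where 53.2% of all rows were. Highest were Atf4 (310 TPM, 49 cells) and Ppp1r15a (139 TPM, 47 cells), the phosphatase subunit that reverses the modification. The exception was Chac1, above TPM 1 in 6 cells. Whether the response was active was not tested.

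Among the factors of start codon selection and subunit joining, Eif1 was the highest. This gene, which guards start codon choice, had a lowest value of 324 TPM, a median of 1250 TPM and a highest value of 2010 TPM, and was above its paralog Eif1b (153 TPM) in all 50 cells. Eif1ax (249 TPM) was above the near-identical Eif1a (108 TPM) in 36 of 50 cells. Reads of such copies could have been split between them by the authors' counting, and the same holds for genes with processed pseudogenes such as Eef1a1. Eif1ad, an eIF1A-domain gene, had 59.9 TPM. Eif5 had 142 TPM (1.02 to 497) and Eif5b had 37.1 TPM (3.5 to 444), both above TPM 1 in every cell. Eif6, which keeps the large subunit from joining, had a lowest value of 1.26 TPM, a median of 309 TPM and a highest value of 862 TPM.

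Of the Argonaute genes listed under older symbols, Eif2c2 (Ago2, the slicing Argonaute) was above TPM 1 in 41 cells with a median of 16.4 TPM. Eif2c1 was above TPM 1 in 18 cells, Eif2c3 in 15 and Eif2c4 in 4 (8%, exact 95% interval 2.22% to 19.2%). In 4 cells no Argonaute was above TPM 1.

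Above 10 TPM the spread between cells fell with level, as it did for all rows. For genes with a median between 100 and 1000 TPM, the median SD of log2(TPM + 1) was 1.29 for the 30 translation factors and 1.6 for the 1449 rows in that range, and 23 of the 30 lay below the latter value. The 34 ribosomal protein rows of that range varied less, at 0.60. Between 10 and 100 TPM the values were 2.3 for 14 factors and 2.40 for 3345 rows, and at 1000 TPM or more they were 0.60 for 5 factors and 0.60 for 124 rows. The steadiest factors were Eef1a1 (0.41), Eef1b2 (0.54), Eif1 (0.56), Eif4a1 (0.60), Eif2s2 (0.64) and Eef1g (0.66).

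Among the genes expressed in 20% to 80% of cells, the largest spreads were those of Eif2b4 (2.87), Eif2b3 (2.86), Eif2ak1 (2.82), Eif2a (2.82), Eif2b1 (2.67) and Eif2d (2.55). In these genes cells at 0 stood beside cells near 100 TPM. Eif2b4, for example, had a lowest value of 0, a median of 39.4 TPM and a highest value of 129 TPM. Between first title numbers these rarer genes could differ widely. The 4 medians of Eif2b4 were 53.3, 39.4, 38.05 and 0.48 TPM, those of Eif2ak1 ran from 4.71 to 30.1 TPM and those of Eif2b3 from 22.4 to 71.5 TPM. For the 35 genes with a median of at least 100 TPM, the highest of the 4 medians exceeded the lowest by a median of 1.34-fold, and 2 genes passed 2-fold, led by Eef1d at 2.58-fold.

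**Figure D2:**
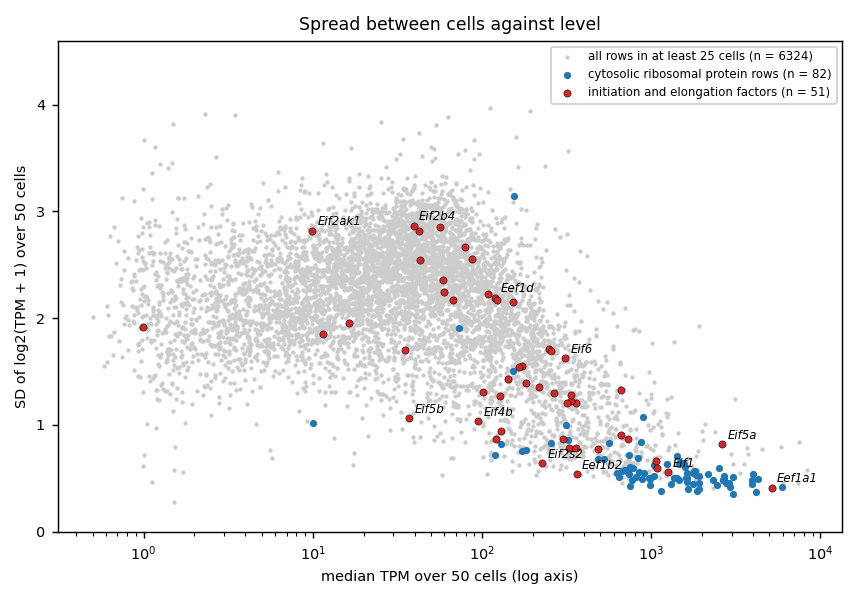
Each point is a gene above TPM 1 in at least 25 cells; the horizontal axis is its median TPM (log axis) and the vertical axis the SD of log2(TPM + 1) over 50 cells. The 51 translation factors (red) follow the fall of spread with level of all 6324 rows (grey), and ribosomal protein rows (blue) lie lower at the same level.

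Pairs of genes of the same group, called a complex here, had low correlations, close in size to those of other pairs. Some groups hold paralogs, cofactors, kinases or binding proteins, so not all such pairs are subunits of 1 assembled complex. Over the 50 cells, the 66 pairs of eIF3 subunits had a median Spearman rho of 0.081, from -0.19 to 0.38, and 5 pairs reached 0.3. The highest was Eif3g with Eif3l (0.38), followed by Eif3f with Eif3k (0.33). In the eIF4F group the 36 pairs had a median of 0.0073, and only Eif4e with Eif4h reached 0.3 (0.34). In all, 130 pairs within a complex had a median rho of 0.073 with 6.15% at 0.3 or more, against 0.056 and 6.38% for 1145 pairs across complexes and 0.043 and 4.77% for all pairs of rows. All these pairs share the same 50 libraries. The difference between pairs within and across complexes was not tested. The extreme pairs, picked after their values were seen, were Eif2ak1 with Eif4g2 (0.60) and Eef1b2 with Eif4h (-0.54), both across complexes. Summed over genes, initiation and elongation factors had a rho of 0.45 with each other.

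**Figure D3:**
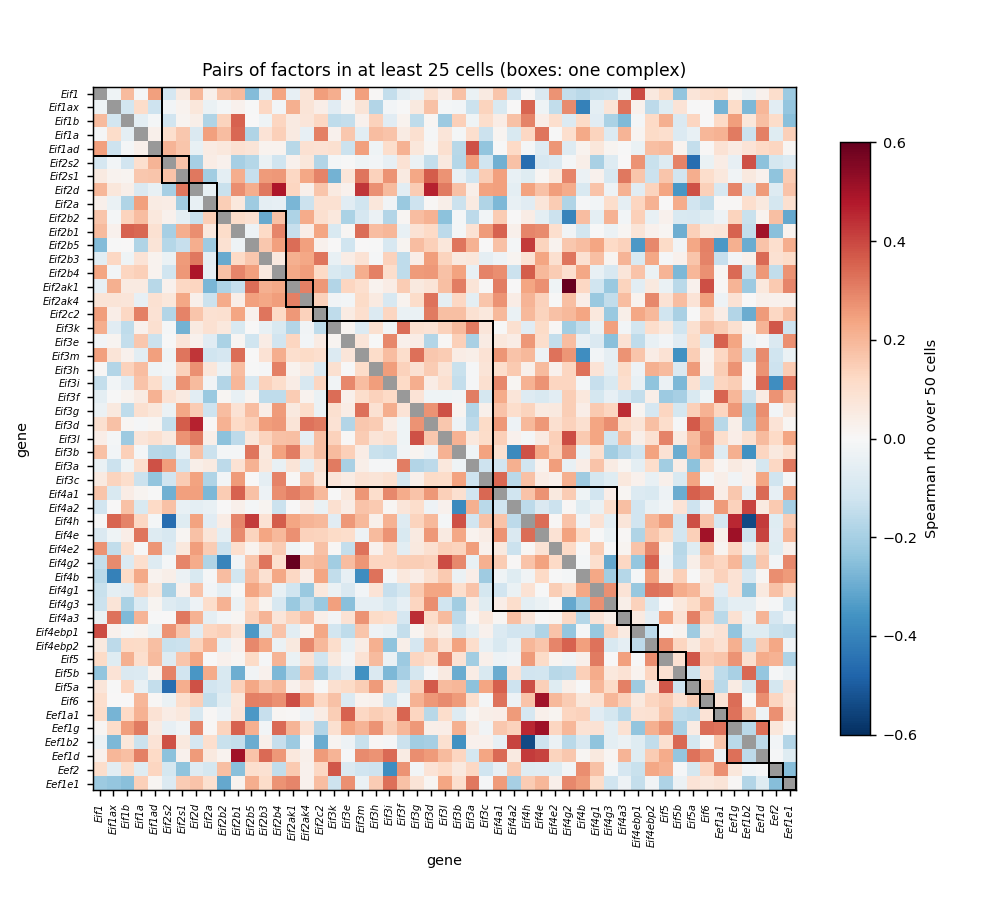
Each square is the Spearman rho of a pair of translation factors over 50 cells, from blue (negative) to red (positive), for the 51 genes above TPM 1 in at least 25 cells. Black boxes enclose genes grouped as a complex, with paralogs and cofactors included. The median is 0.073 inside the boxes and 0.056 outside them.

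Mycn (chr12:12936093-12941914, minus strand), the MYC family gene with the highest median in these cells, had a lowest value of 0, a median of 79.9 TPM and a highest value of 569 TPM, and was above TPM 1 in 41 cells. Myc had a median of 9.39 TPM and was above TPM 1 in 32. The summed level of the 61 translation factors was positively related to Mycn, with a rho of 0.39 and Pearson's r of 0.39 over 50 cells. Given the number of genes per cell it was 0.39, and without the 2 cells farthest from the median Mycn level it was 0.37. Leaving out each first title number in turn gave 0.33 to 0.50, but within the numbers the values were 0.69, -0.095, 0.37 and 0.52, so the 14 cells of number 2 did not show it. Mycn and the number of genes per cell were weakly related (rho 0.13). The summed ribosomal protein rows had a rho of 0.18 with Mycn, and 0.34 given the number of genes per cell. Within the first title numbers the rho of these rows was 0.55, -0.34, 0.65 and -0.15. With 1 number left out it ran from -0.012 to 0.38.

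By summed level, the relation to Mycn was highest for the eIF4F genes (0.44), Eif6 (0.38) and the eIF2 kinases (0.33). It was near 0 for eIF1 and eIF1A (0.011) and eIF2 (-0.0086), and the eIF3 sum had 0.093. A sum is weighted to its most abundant genes and need not hold for the others. Within the eIF4F group, rho ran from -0.067 for Eif4a2 to 0.46 for Eif4a1, the gene with the highest median. Among the eIF2 kinases it ran from -0.13 for Eif2ak3 to 0.46 for Eif2ak1, again the gene with the highest median. Gene by gene, 7 of the 51 factors seen in at least 25 cells (13.7%) had a rho of 0.3 or more with Mycn, where 4.43% of all rows and 15 of 82 ribosomal protein rows (18.3%) did. The difference between factors and ribosomal protein rows was not tested. The 7 factors were Eif2ak1 (0.46), Eif4a1 (0.46), Eif6 (0.38), Eif3f (0.33), Eif3l (0.33), Eif3k (0.33) and Eif2d (0.31), and Eef2 (0.30, just under the limit) and Eef1g (0.29) came next. The median over the 51 genes was 0.10, against 0.046 over all 6324 rows. At -0.3 or less stood 1 factor, Eif5b (-0.33), where 1.52% of rows did. Next lowest were Eef1b2 (-0.19) and Eif2a (-0.17). Given the number of genes per cell, 7 factors again reached 0.3, 6 of them the same, with Eef2 (0.31) in place of Eif2d (0.28), where 3.8% of rows did. Eif5b (-0.33) alone was at -0.3 or less, where 1.93% of rows were.

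Of the 7 factors, 4 had a positive rho within each of the 4 first title numbers. Eif2ak1 lay between 0.18 and 0.63 within the numbers, Eif6 between 0.26 and 0.64 and Eif4a1 between 0.049 and 0.69, and Eif3l was the fourth. The other 3 were negative within at least 1 number: Eif3f ran from -0.24 to 0.78, Eif3k from -0.40 to 0.56 and Eif2d from -0.25 to 0.62. With 1 title number left out their lowest values were 0.14, 0.22 and 0.21, under the limit of 0.3. Those of Eif3l (0.28) and Eif6 (0.299) were under it too, and Eif2ak1 (0.38) and Eif4a1 (0.36) stayed above it. Eif5b lay between -0.59 and 0.055 within the numbers. With 1 number left out it ran from -0.44 to -0.19, so it did not always reach -0.3. Leaving out first title number 4 brought the count of factors at 0.3 or more to 4 of 51 (7.84%), where 4.45% of rows did. They were Eif2ak1, Eif3l, Eif4a1 and Eif4e, of which 3 were among the 7. Without number 1 it was 7 of 52, where 8.73% of rows did, without number 2 it was 9 of 53 (17%), where 5.92% did, and without number 3 it was 6 of 50 (12%), where 9.14% did. With Myc in place of Mycn the median rho was 0.027, and Myc and Mycn had a rho of 0.073 with each other.

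**Figure D4:**
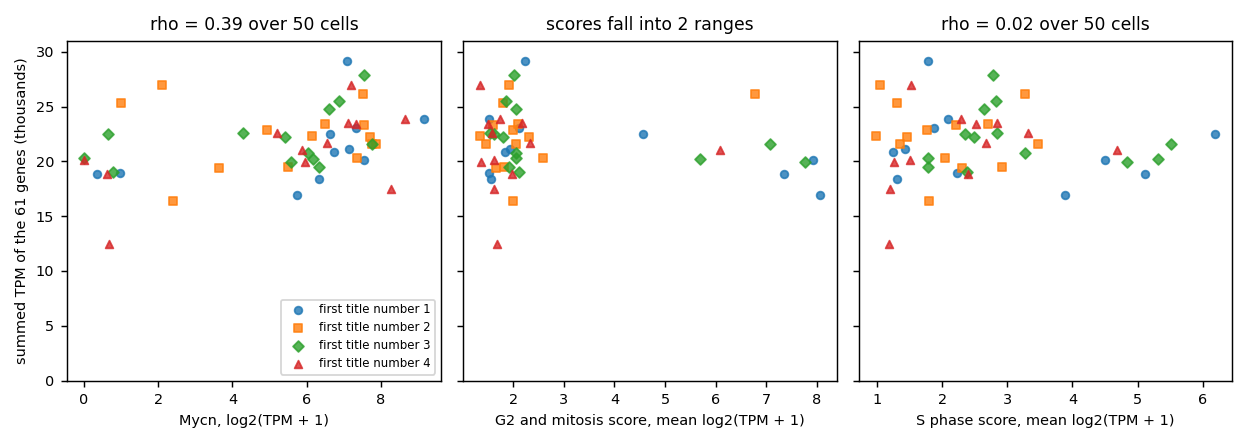
Each point is a cell, with the summed TPM of the 61 genes (in units of 1000 TPM) against Mycn, the G2 and mitosis score and the S phase score; symbols and colours mark the first title number. The sum rises with Mycn (rho 0.39), while the G2 and mitosis score separates 41 cells at the left from 9 at the right, and the sum has a rho of 0.019 with the S phase score.

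Because MYC family proteins bind CACGTG, the promoters were searched for it in the RefSeq windows on GRCm38.p6 (250 bases before to 50 after each start). The motif reads the same on both strands. Windows existed for 48 of the 61 genes. It was present in 12 of them (25%), against 8.09% of all 27025 genes with a window and 13.0% of the 4823 rows with a window that were above TPM 1 in at least 25 cells. These were Eef2, Eef2k, Eif1b, Eif3a, Eif3f, Eif3k, Eif4a1, Eif4e, Eif4g1, Eif4h, Eif5a and Eif5a2. The 4 windows below are shown because Eif4a1, Eif3f and Eif3k are the genes that both carry the motif and reach a rho of 0.3 with Mycn over all 50 cells, and Eef2 lies just under it. Each is the strand of the gene, 5′ to 3′, upstream of the start, with CACGTG in capitals.
Eif4a1, chr11:69672580-69672639, minus strand: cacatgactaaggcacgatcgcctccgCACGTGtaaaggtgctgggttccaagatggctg
Eif3f, chr7:108934320-108934379, plus strand: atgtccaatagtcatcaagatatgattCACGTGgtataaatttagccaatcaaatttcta
Eif3k, chr7:28981900-28981959, minus strand: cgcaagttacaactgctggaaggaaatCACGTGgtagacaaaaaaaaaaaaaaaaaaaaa
Eef2, chr10:81176561-81176620, plus strand: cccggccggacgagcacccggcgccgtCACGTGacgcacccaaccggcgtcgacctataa

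Among the factors with a window that were seen in at least 25 cells, the 10 with the motif had a median rho with Mycn of 0.22 and the 30 without it had 0.089. For all such rows the medians were 0.066 and 0.043. Counting the genes at 0.3 or more gave 3 with the motif (Eif4a1, Eif3f and Eif3k) and 3 without it (Eif2ak1, Eif3l and Eif2d), and Eif6 had no window in the table. Of all such rows, 6.05% with the motif and 4.27% without it reached 0.3. Of the 3 with the motif, Eif3f and Eif3k fell to 0.14 and 0.22 when 1 title number was left out. The abundant carriers Eif5a (0.17) and Eif4h (0.065) were below 0.3, and Eif1b was at -0.13. A match of 6 letters is a description of the window and not of binding.

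Translation factor and ribosomal protein mRNAs often begin with a run of pyrimidines, the 5′ terminal oligopyrimidine motif read by the mTORC1 pathway. A run of at least 8 pyrimidines reaching within 10 bases of an annotated start was present in 9 of the 48 genes (18.8%). That was near the 16.1% of all genes with a window and the 17.3% of expressed rows. A run could lie before or after the start, and whether it began at the first base of the mRNA was not tested. The longest runs were those of Eif2b5, 21 pyrimidines, and Eif3f, 15. They are shown with those of Eef1a1 and Eif3l as examples, chosen after the sequences were read, from 12 bases before to 18 after the start, with the part of the run inside these bases in capitals. In each the capitals begin before the start, at -12 for Eif2b5, -5 for Eef1a1, -4 for Eif3f and -7 for Eif3l. Bases before the start are not in an mRNA that begins there, and most of the Eif2b5 run lies before it. The starts used for Eef1a1 and Eif3l lie inside the GENCODE span of the gene, so they are not its most upstream annotated start.
Eif2b5, chr16:20498805-20498834, plus strand: TCCTCTTTCTCTCCCTgcaactacaccttc
Eef1a1, chr9:78481707-78481736, minus strand: ggctccgCCCTCTTCCCgagggtgggggag
Eif3f, chr7:108934403-108934432, plus strand: gttctaggCTCTCTCTCTTTCTCggcaaga
Eif3l, chr15:79075211-79075240, plus strand: cggagTTCTTCTTCCgctctctcccacggg

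The relation to cell division was read from 2 scores, each the mean of log2(TPM + 1) over a list, 45 DNA replication genes for S phase and 51 genes of G2 and mitosis. Both scores moved with the number of genes above TPM 1 per cell, with a rho of 0.73 for S phase and 0.62 for G2 and mitosis. Of the 51 factors, 14 (27.5%) had a rho of 0.3 or more with that number, where 25.2% of rows did, and none had -0.3 or less, where 1.53% did. The summed level of the 61 factors was close to unrelated to the S phase score (0.019), and the values within the first title numbers were -0.15, -0.21, 0.12 and 0.50. The sum without Eef1a1 had 0.28. The mean of log2(TPM + 1) over the 51 factors, which weights rare genes as much as abundant ones, had 0.58. Its rho with the number of genes was 0.71, given which the 0.58 became 0.12. The share of that number in the S phase relation was not tested further.

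At the level of single genes, 9 of 51 factors (17.6%) had a rho of 0.3 or more with the S phase score, close to the 15.6% of all rows. Without first title number 1 it was 18 of 52 (34.6%), where 18.2% of rows did, and without numbers 2, 3 and 4 it was 12, 10 and 9 factors (22.6%, 20% and 17.6%), near the 20.4%, 18.8% and 15.6% of rows. The 9 were Eif5a (0.57), Eif4h (0.52), Eef1d (0.49), Eif2d (0.44), Eif4e (0.42) and 4 of the 5 eIF2B genes, Eif2b5 (0.40), Eif2b4 (0.39), Eif2b3 (0.35) and Eif2b1 (0.33). The fifth, Eif2b2, had -0.24. Given the number of genes per cell, only Eif5a still reached 0.3 (0.40), where 4.09% of rows did. Eif5a was between 0.41 and 0.76 within each first title number. In the other direction Eif2s2 (-0.32) and Eef2 (-0.32) were at -0.3 or less, where 2.35% of rows were, and Eef1a1 had -0.28. Given the number of genes, 4 of the 51 genes lay at -0.3 or less, Eif2b2 (-0.42), Eef2 (-0.38), Eif1 (-0.37) and the Argonaute gene Eif2c2 (-0.33), where 6.74% of rows did.

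**Figure D5:**
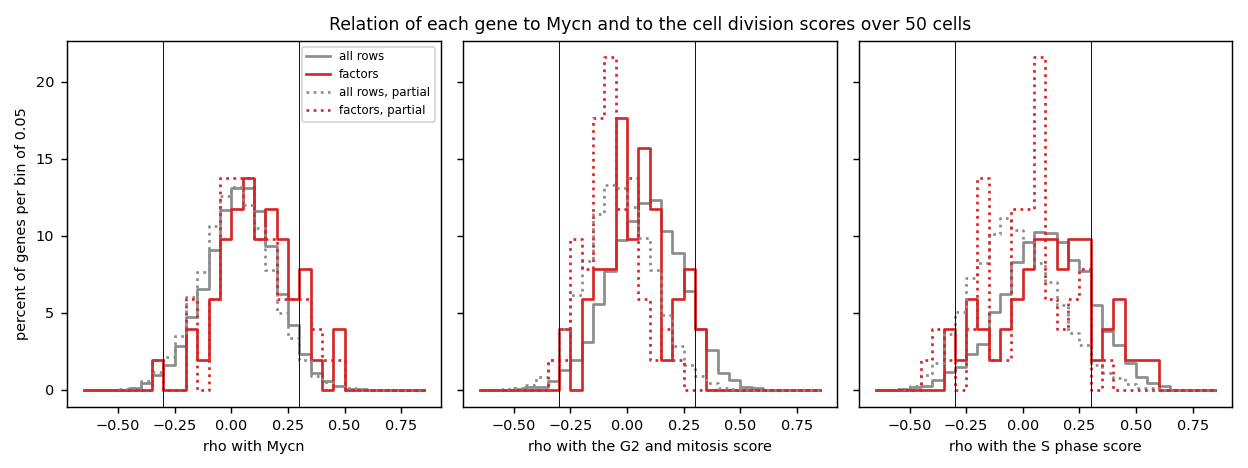
Histograms of Spearman's rho over 50 cells with Mycn, the G2 and mitosis score and the S phase score, in percent of genes per bin of 0.05, for the 51 translation factors (red) and all rows above TPM 1 in at least 25 cells without the genes of the score (grey); dotted lines are the values given the number of genes per cell and vertical lines mark 0.3 and -0.3. The factors lie to the right of all rows for Mycn (medians 0.10 and 0.046), and their S phase values above 0.3 mostly leave that range in the dotted line, where 1 of 9 remains.

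The G2 and mitosis score fell into separate ranges. In 41 cells it lay between 1.34 and 2.58, and in 9 cells between 4.56 and 8.05, so values are given within each range. In the 41 cells, 2 of 51 factors had a rho of 0.3 or more, Eif2b3 (0.34) and Eif3b (0.30), where 6.29% of rows did, and 1 had -0.3 or less, Eif1ax (-0.31), where 0.809% did. The median over the factors was 0.027, and there the score and the number of genes had a rho of 0.46. In the 9 cells, 6 factors had a rho of 0.3 or more and 19 of -0.3 or less, where 25.5% and 20.9% of rows did, since values of that size are common over so few cells. There the summed level of the 61 genes had a rho of -0.73 with the score, -0.70 without Eef1a1, and the ribosomal protein sum had -0.55.

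In the 9 cells the sum of the 61 genes was 22460, 20230, 21020, 26135, 21565, 18815, 19939, 20144 and 16961 TPM in order of rising score. The highest sum stood at the fourth score and the lowest at the ninth, and all 9 lay within the range of the other 41 cells. Over all 50 cells, where the ranks mix both ranges, Eif3b (0.34) and Eif4e (0.32) reached 0.3, or 3.92% of the 51 factors, where 8.63% of rows did. With title numbers left out in turn it was 2 to 5 factors, where 9.76% to 12.2% of rows did. No factor had -0.3 or less, where 0.983% of rows did, and Eif3e (-0.28) and Eif2s2 (-0.26) came closest. Given the number of genes none reached 0.3, where 1.63% of rows did, and Eif3d (-0.34) alone was at -0.3 or less, where 3.27% of rows were.

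The genes that act after or beside these factors give the rest of the pathway. Of 8 termination and recycling genes, 6 were above TPM 1 in at least 25 cells, and 2 of these had a rho of 0.3 or more with Mycn, where 4.43% of all rows did: Abce1 (0.40), the recycling ATPase, and Gspt1 (0.32), the release factor eRF3. Given the number of genes per cell they had 0.39 and 0.297, the latter under the limit. The poly(A)-binding protein gene Pabpc1 (251 TPM) and its inhibitor Paip2 (329 TPM) were above TPM 1 in all 50 cells, and none of that list of 5 reached 0.3 with Mycn. Of 13 genes of mTORC1 and the cap kinases, 8 were above TPM 1 in at least 25 cells and none reached 0.3. Rheb, the activating GTPase, had a median of 230 TPM and was in all 50 cells, whereas Mtor itself was above TPM 1 in 23. Pdcd4, the eIF4A inhibitor, had 42.9 TPM and was in 47 cells. Of 9 mitochondrial translation factors, 6 were above TPM 1 in at least 25 cells, led by Tufm (76.5 TPM), the mitochondrial counterpart of eEF1A.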

How the data were processed

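The deposited file was a table of TPM per gene and cell. Per the labels and the study's methods, cDNA of sorted single cells was amplified with a whole-transcriptome kit, no molecular identifiers being named, and the authors aligned reads to mm10 with HISAT2 2.1.0 and estimated TPM with StringTie 1.3.4 (versions from the submitters' processing notes). TPM keeps no depth, and a 0 may be a failed estimate, so it is called listed at 0. How the 11879 rows were picked is not given in the sources used here. They held 94.3% to 97.1% of the full TPM total of a cell, and no 2 columns were identical.

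A gene was counted in a cell at TPM above 1. Spread was the SD of log2(TPM + 1). Relations were Spearman's rho over the 50 cells, and partial rho given the number of genes above TPM 1. They describe these cells and have no p-value, since the labels name no animal or culture and all cells are 1 sample. Shares of cells have exact Clopper-Pearson 95% intervals, which cover counting error over cells only. The function for rho and partial rho was tested on simulated data. No cell was left out, clustered or screened for doublets.

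The genes, complexes, lists and rules were chosen with earlier results of these data known. Named genes were, in each complex, those with the highest and lowest median and every gene of complexes of up to 5, the 10 highest medians, the 6 largest spreads among genes in 20% to 80% of cells, the 5 highest and 3 lowest rho with Mycn and each score, paralog pairs, and genes of the lists. Others were named after their values were seen. Gene positions came from GENCODE M21 (GRCm38) and promoter sequences from RefSeq on GRCm38.p6. Alternatives were other TPM limits, a pseudocount of 0.1, Pearson's r, other thresholds and sums, cells or title numbers left out, and TPM rescaled without ribosomal protein rows. Computation used Python 3.11.15, numpy 2.4.6, pandas 2.3.3, scipy 1.17.1 and matplotlib 3.10.9.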

Additional observations from a re-analysis of the deposited data

How the results depend on the processing

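The sum's relation to Mycn had rho of 0.334 to 0.502 when each first title number was left out and 0.292 for the mean of log2(TPM + 1), but was -0.095 within title number 2 alone. No paired analysis was possible because all cells form 1 group. With no replicate culture and an unknown depth, how far a rho near 0.3 would recur in other cells cannot be read from these data. The cause of each shift was not tested.

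Of the 61 genes, 18 were above TPM 5 in all cells, where 4.74% of all rows were, and 16 above TPM 10, where 4.15% were, in place of 29 above TPM 1, and 29 to 33 when a title number was left out, where 7.41% to 9.27% were. Their share of TPM was 2.62% without ribosomal protein rows and 2.18045% to 2.25% over the title numbers left out. The count at rho 0.3 or more with Mycn was, with the percent of all rows in brackets, 12 by Pearson's r (10.4%), 15 at a threshold of 0.2 (14.9%), 2 at 0.4 (0.981%), and 4 to 9 over the title numbers left out (4.45% to 9.14%). With the S phase score it was 1 given the number of genes (4.09%), 3 of 29 for genes in all cells (11.3%), 19 at 0.2 (31.7%), and 9 to 18 over the title numbers left out (15.6% to 20.4%). With the G2 and mitosis score it was 1 without cells of fewer than 5000 genes, after rescaling, by Pearson's r or for genes in all cells (5.2% to 8.1%), 0 given the number of genes (1.63%) or at 0.4 (2.08%), 9 at 0.2 (23.9%), 4 with the score as a number of genes (11.2%), and 2 to 5 over the title numbers left out (9.76% to 12.2%). At -0.3 or less with that score it was 1 without cells of fewer than 5000 genes, by Pearson's r, given the number of genes, with the score as a number of genes or in the 41 cells of low score (0.809% to 3.27%), 2 at a threshold of 0.2 (4.23%), and 0 to 1 over the title numbers left out (1.16% to 2.62%).

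As the mean of log2(TPM + 1), the 51 factors had a rho of 0.297 with the G2 and mitosis score and 0.579 with the S phase score. Chosen after seeing the data, the 9 cells of high G2 and mitosis score gave 6 factors at 0.3 or more (25.5%), 19 at -0.3 or less (20.9%) and -0.733 for the sum. In them Eif3b (-0.10) and Eif4e (-0.18) changed sign.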

Other observations

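Among 11 rows of the MYC family list, 7 were above TPM 1 in at least 25 cells, Mycn included. Max, the partner of MYC proteins, had a median of 23 TPM in 37 cells and a rho of -0.033 with Mycn, and the antagonist Mxi1 had 24.2 TPM in 43 cells and -0.079. Mxd1 had -0.19, Mlx -0.17, Mga -0.11 and Myc 0.073. None of these 6 was beyond 0.3 in size, where 4.43% of all rows had 0.3 or more and 1.52% had -0.3 or less. Mycl1, listed under its older symbol, was above TPM 1 in 3 cells. Of the 83 ribosomal protein rows, 79 were above TPM 1 in all 50 cells and 15 of the 82 seen in at least 25 cells (18.3%) had a rho of 0.3 or more with Mycn, where 4.43% of all rows did.

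Some of the stress response genes downstream of eIF2 varied widely between iHECs. Atf3 ran from 0 to 1808 TPM with a median of 64.5 TPM, Asns from 0 to 980 TPM with a median of 87.6 TPM, and Trib3 from 0 to 576 TPM with a median of 14.3 TPM. Their SDs of log2(TPM + 1) were 3.154, 3.001 and 3.122. For all 3345 rows with a median between 10 and 100 TPM the median SD was 2.40. Over the whole list the SDs ran from 1.31 for Atf4, with a median of 310 TPM, and 1.87 for Cebpg to 3.154 for Atf3. None of this list of 11 genes reached a rho of 0.3 with Mycn.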
